A study of Danio rerio with 6 samples.

Results

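The genes described here encode the bone morphogenetic protein (BMP) ligands of the early zebrafish embryo (*bmp2b*, *bmp4* and *bmp7a*), their secreted antagonists (*chrd*, *nog1*, *fsta* and *szl*), and the protease gene *bmp1a*, whose product cleaves the antagonist Chordin. They were read through every array feature that the platform's table of probes and genes lists under one of these 8 symbols. This gave 8 of the 45220 features on the array, for 6 of the 8 genes: 1 feature each for *bmp2b*, *bmp7a*, *chrd* and *nog1*, and 2 each for *bmp4* and *bmp1a*. No feature was listed for *fsta* or *szl*, which are not analysed here.

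Zebrafish embryos of the AB strain were injected with 1 nl of water (control-injected) or with 1 nl of water that held 50 pg of mRNA for the Nodal ligand gene *ndr1* (*ndr1*-injected), and RNA was taken at sphere stage, when the embryo is a blastula. Each group had 3 samples, each a pool of about 200 whole embryos hybridised to a one-colour Agilent array. The control injection held no RNA according to the labels, so an effect of *ndr1* and an effect of injecting any mRNA cannot be told apart in this comparison, and whole pooled embryos do not show in which cells a transcript changed. Separate clutches are not named in the labels, and the p-values given speak of the variation among these pools, and part or all of it may be technical.

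BMP ligands are secreted dimers that signal through serine/threonine kinase receptors to the Smad1, Smad5 and Smad9 effectors. In the zebrafish blastula and gastrula this signal is highest ventrally and specifies ventral fates. On the dorsal side it is lowered by antagonists such as Chordin, which are released from the organizer and bind the ligands outside the cell. Nodal signalling, which acts through Smad2 and Smad3, induces mesoderm and endoderm at the margin, and at high levels the organizer itself. The comparison therefore asks how ligand and antagonist transcripts stood when Nodal was raised.

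The labels were checked with the injected gene. On its single feature *ndr1* read 10.61, 10.10 and 10.87 in control-injected and 13.79, 14.85 and 13.89 in *ndr1*-injected embryos (log2 signal), and the groups did not overlap. After the authors' normalisation all 6 arrays had a median of 8.70 or 8.71. Arrays correlated at 0.836 to 0.886 within the control-injected group and at 0.920 to 0.926 within the *ndr1*-injected group, so the control-injected arrays were the more variable. Of 8 genes known from blastula deep cells and margin all 8 had a feature above the median brightness of the array, but so had 3 of 6 genes of later tissues, among them *ins*, and brightness alone is therefore no sign of expression here. Genes of the enveloping layer and the yolk syncytial layer, the extraembryonic layers of the blastula, had median differences of 0.18 over 10 and 0.26 over 8 genes, and germ plasm genes one of -0.31 over 7. Their mean log2 signal ran from 10.93 to 11.06 on control-injected and from 10.91 to 11.83 on *ndr1*-injected arrays for the enveloping layer, from 9.96 to 10.50 and from 10.31 to 10.84 for the yolk syncytial layer, and from 10.91 to 11.10 and from 10.80 to 11.11 for germ plasm. Within the yolk syncytial layer list the differences ran from -1.24 (*slc40a1*) to 2.31 (*gata6*). The part of these layers and of germ plasm in the results below was not tested.

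One antagonist gene and one ligand gene stood out. The *chrd* transcript was about 10.3 times as high in *ndr1*-injected as in control-injected embryos, and *bmp4* 2.70 and 5.18 times as high on its 2 features, with no overlap of the groups on any of these 3 features. The other ligand genes *bmp2b* and *bmp7a*, the antagonist gene *nog1* and the protease gene *bmp1a* overlapped between the groups on all of their features. None of the 8 features passed the test (limma, adjusted p below 0.05 over all 45220 features), and neither did any other feature of the array (0.0%). In an array where no feature passes, the calls do not separate these genes from the rest. Read without adjustment, 3 of the 8 features had a limma p below 0.05, against 6.74% of all features. The same 3 were higher with p of at most 0.02, against 1.17%. They were the *chrd* feature and both *bmp4* features. The study's text gives a cutoff of 0.02 without saying whether its p-values were adjusted. Likewise 3 of the 8 had all 3 *ndr1*-injected values above all 3 control-injected values, against 7.53% of all features, and 7 of the 8 differences were above 0, against 49.2%.

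**Figure D1:**
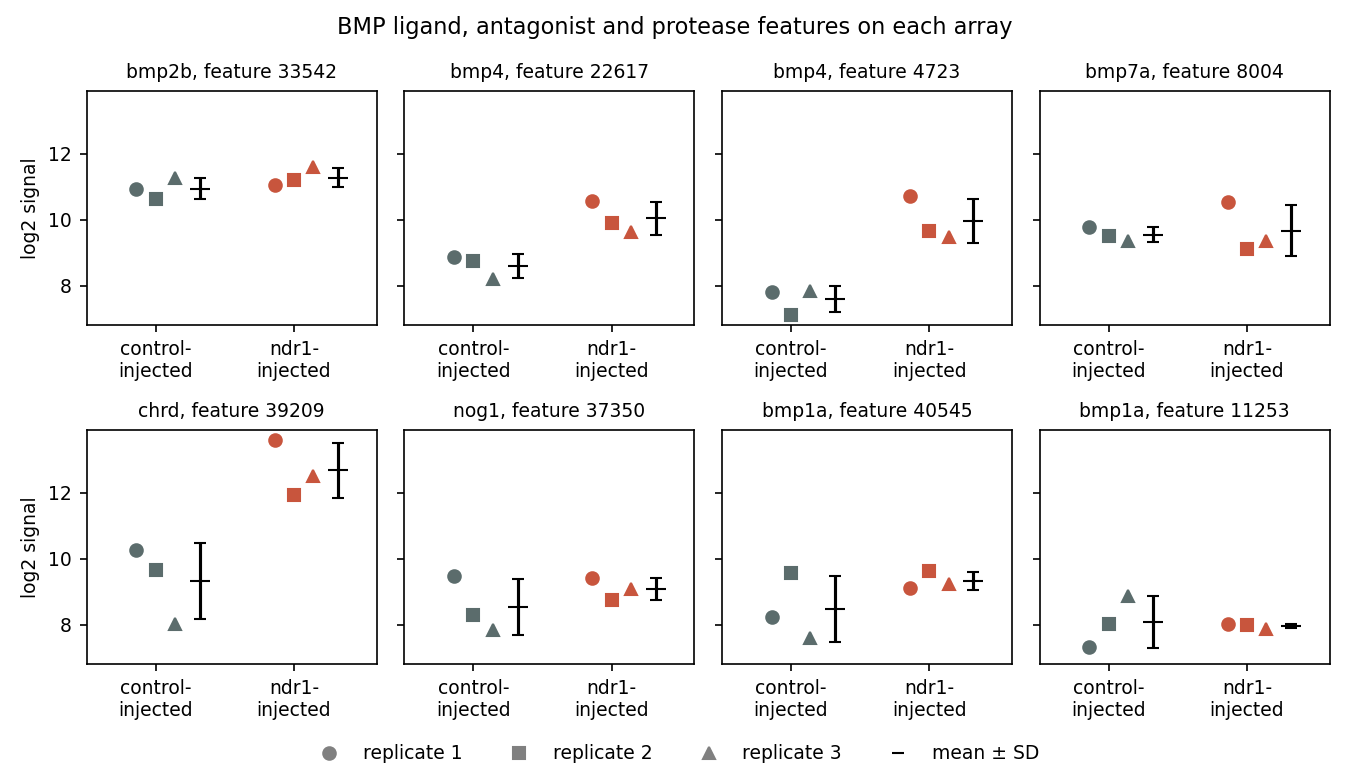
Log2 signal (vertical axis) of each of the 8 features on the 3 control-injected and 3 *ndr1*-injected arrays, with replicates as separate symbols and the mean ± SD beside them. The groups are apart for *chrd* and both *bmp4* features and overlap for the other 5.

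Among the ligands, *bmp4* had the larger differences. BMP4 and its close relative BMP2 are ligands of the same subgroup, and zebrafish *bmp4* is transcribed ventrally and, later, in the organizer region. Its brighter feature (22617) read 8.87, 8.74 and 8.19 in control-injected and 10.58, 9.91 and 9.62 in *ndr1*-injected embryos. Every *ndr1*-injected array was above every control-injected array, and the lowest of them was higher than the highest control by less than 1 log2 unit. The means were 8.60 ± 0.36 and 10.04 ± 0.49 (SD, n = 3), a difference of 1.44 ± 0.36 log2 units (SE), with a 95% interval of 0.61 to 2.26, an unadjusted limma p of 0.00411 and an adjusted p of 0.726.

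The dimmer *bmp4* feature (4723) read 7.81, 7.12 and 7.82 in control-injected and 10.73, 9.67 and 9.47 in *ndr1*-injected embryos. The groups were again apart, and the order of the 3 *ndr1*-injected arrays was that of the brighter feature, with replicate 1 highest and replicate 3 lowest. The difference was 2.37 ± 0.41 log2 units (SE) with a 95% interval of 1.42 to 3.32, an unadjusted limma p of 0.000467 and an adjusted p of 0.587. The intervals of the 2 *bmp4* features overlapped. Where in the transcript each feature lies is not known here. The exact two-sided permutation test gave p = 0.1 for each *bmp4* feature, the smallest value that 3 arrays against 3 allow.

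For *bmp2b*, which in zebrafish is required for ventral fates and acts as a dimer with Bmp7a, the control-injected values were 10.94, 10.63 and 11.27 and the *ndr1*-injected values 11.04, 11.20 and 11.60. Only *ndr1*-injected replicate 3 lay above all controls. The difference was 0.33 ± 0.31 log2 units (SE), and its 95% interval ran from -0.38 to 1.05, that is from 0.766 to 2.07 times the control level. The estimate for the brighter *bmp4* feature lay above this interval, but the interval of that feature, 0.61 to 2.26, overlapped it. The difference between *bmp4* and *bmp2b* was not tested.

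*bmp7a*, the gene of its dimer partner, read 9.79, 9.51 and 9.35 in control-injected and 10.55, 9.11 and 9.34 in *ndr1*-injected embryos. One *ndr1*-injected array, replicate 1, was above all controls and the other 2 were below all of them. The difference was 0.12 ± 0.42 (SE), with an interval from -0.85 to 1.08, and without *ndr1*-injected replicate 1 it was -0.33. The direction of *bmp7a* thus rested on 1 array.

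Among the antagonists, *chrd* had the largest difference of the 8 features. Chordin is made by the organizer, binds BMP ligands and keeps them from their receptors. Its feature (39209) read 10.27, 9.66 and 8.02 in control-injected and 13.60, 11.93 and 12.51 in *ndr1*-injected embryos. The groups did not overlap, but the values within each were spread widely, with control-injected replicate 3 lowest and *ndr1*-injected replicate 1 highest. The means were 9.32 ± 1.17 and 12.68 ± 0.85 (SD, n = 3). The difference was 3.36 ± 0.65 log2 units (SE) with a 95% interval of 1.86 to 4.87, or 3.63 to 29.2 times the control level. Its unadjusted limma p was 0.000923 and its adjusted p 0.726 over features and 0.486 with 1 feature per gene, and the exact permutation test gave p = 0.1. Without control-injected replicate 3 the estimate was 6.57 times the control level instead of 10.3, and without each of the other arrays it ran from 7.48 to 14.4. Of the 45220 features 10, the *chrd* feature included, had a difference at least this large (0.0221%), and 207 had one at least as large as that of the brighter *bmp4* feature (0.458%).

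*nog1*, for the ligand-binding antagonist Noggin, overlapped between the groups, and its contrast with *chrd* was not tested. Its feature lay at percentile 53.9 of the array's brightness, and whether it detected transcript could not be judged. Control-injected arrays read 9.48, 8.29 and 7.84 and *ndr1*-injected arrays 9.42, 8.74 and 9.07. The highest value of all was a control, replicate 1, and no *ndr1*-injected array lay above it. The difference was 0.54 ± 0.45 (SE) with a 95% interval from -0.52 to 1.59, and it was 1.01 without control-injected replicate 1 and 0.19 without control-injected replicate 3.

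Bmp1a belongs to the Tolloid family of metalloproteases, which cut Chordin and so free the ligands it holds. The 2 *bmp1a* features differed from each other. The brighter (40545) read 8.24, 9.57 and 7.59 in control-injected and 9.11, 9.63 and 9.23 in *ndr1*-injected embryos, a difference of 0.85 ± 0.50 (SE). The other (11253) read 7.32, 8.01 and 8.88 and then 8.01, 7.98 and 7.87, a difference of -0.11 ± 0.41. On both, the 3 *ndr1*-injected values lay close together (SD 0.27 and 0.07) and the controls were far apart (SD 1.01 and 0.79), with control-injected replicate 3 lowest on one feature and highest on the other. No direction can be given for *bmp1a* as a gene, because its 2 features differed in sign. The brighter feature stayed above 0 with any array left out, at 1.41 without control-injected replicate 2 and 0.41 without control-injected replicate 3. The dimmer feature turned to 0.29 without control-injected replicate 3.

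The spread between arrays had a shared form. *ndr1*-injected replicate 1 was the highest array of its group on 6 of the 8 features, against 30.5% of all features. Control-injected replicate 3 was the lowest of its group on 5 of the 8, against 31.4% of all features. The same *ndr1*-injected replicate 1 had the highest mean log2 signal of all 6 arrays over the enveloping layer genes (11.83, against 10.91 to 11.15 on the others) and over the yolk syncytial layer genes (10.84, against 9.96 to 10.55), and the part of this in the values was not tested. Without this array *chrd* still differed by 2.90 log2 units and *bmp4* by 1.16 and 1.99. The 2 features of 1 gene share their transcript, so these counts are not of independent items.

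**Figure D2:**
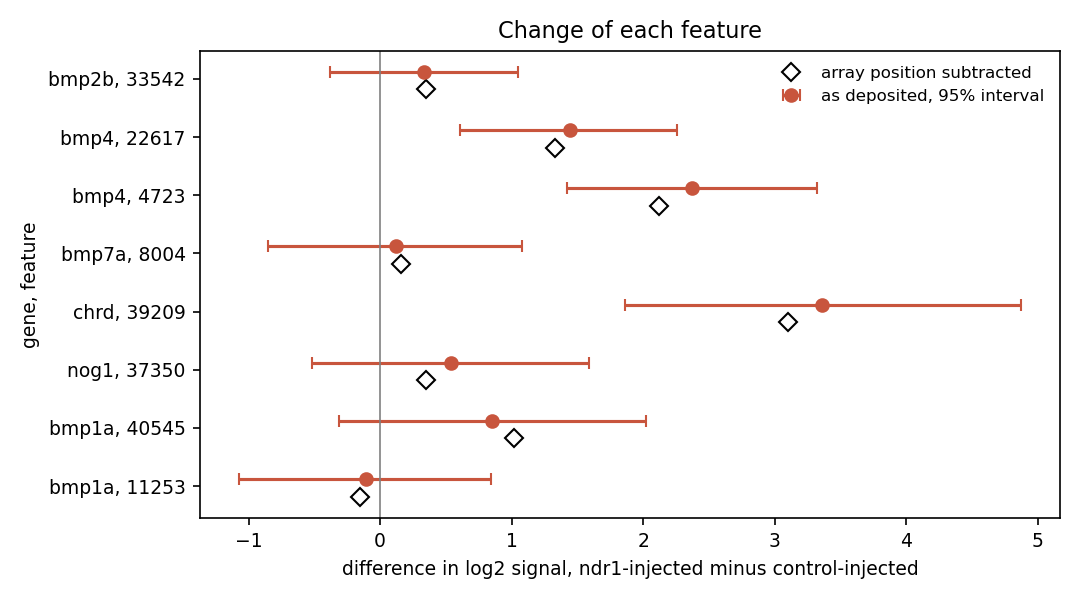
Difference in log2 signal between *ndr1*-injected and control-injected embryos (horizontal axis) for each feature, with the 95% interval of the limma fit and, as open diamonds, the difference once the local trend with array position was subtracted. The intervals of *chrd* and of both *bmp4* features lie above 0, from 0.61 upwards, and those of the other 5 features include 0.

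Set side by side, the 4 ligand features had a median difference of 0.88 log2 units (0.12 to 2.37) and the 2 antagonist features one of 1.95 (0.54 and 3.36), beside a median of -0.01 over all features of the array. Over the named features the median was 0.04. The ligand median was made by *bmp4*, which supplied 2 of its 4 features: with 1 feature per gene it was 0.33. The 2 *bmp1a* features had a median of 0.37. Groups were separate for 1 of the 3 ligand genes and 1 of the 2 measured antagonist genes, and overlapped on both *bmp1a* features. Separate groups with *ndr1*-injected higher were found for 8.11% of all 14434 named genes, read by their brightest feature. Counts this small do not set ligands apart from antagonists.

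The contrast below of *chrd* with the ligand genes was chosen with earlier results of these data known. In these *chrd* had the largest difference among the antagonists, so the p-values are no independent support for antagonists changing more than ligands. The contrast was not made for *nog1*, whose difference of 0.54 lay below those of both *bmp4* features. Whether *chrd* changed by more than the ligand genes was read within arrays, which cancels any factor common to an array. The measure was the log2 signal of *chrd* minus that of the ligand gene on the same array. For *bmp4* (brighter feature) this was 1.41, 0.91 and -0.17 in control-injected and 3.02, 2.02 and 2.89 in *ndr1*-injected embryos. All *ndr1*-injected values were higher on this feature, and the change of *chrd* exceeded that of *bmp4* by 1.93 ± 0.56 log2 units (SE). Against the dimmer *bmp4* feature, a reading added after the data had been seen, the values were 2.46, 2.53 and 0.20, then 2.88, 2.26 and 3.04. There the groups overlapped, with an excess of 0.99 ± 0.80 and p = 0.3 in the exact two-sided permutation test, so an excess of *chrd* over *bmp4* depended on the *bmp4* feature read. For *bmp7a* it was 0.48, 0.15 and -1.33, then 3.06, 2.82 and 3.17, an excess of 3.25 ± 0.57. The 3 *ndr1*-injected values for *bmp7a* lay within a much narrower range than those of either gene alone. For *bmp2b* it was -0.67, -0.98 and -3.25, then 2.57, 0.73 and 0.91, an excess of 3.03 ± 1.00. With the brighter *bmp4* feature the exact two-sided permutation test gave p = 0.1 for each of the 3 pairs, also after Benjamini-Hochberg adjustment over them, which is the smallest possible. Without each array in turn the excess over the brighter *bmp4* feature ran from 1.48 to 2.27, over *bmp2b* from 2.22 to 3.52 and over *bmp7a* from 2.70 to 3.61. With the mean of both *bmp4* features in place of the brighter one the excess over *bmp4* was 1.46.

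**Figure D3:**
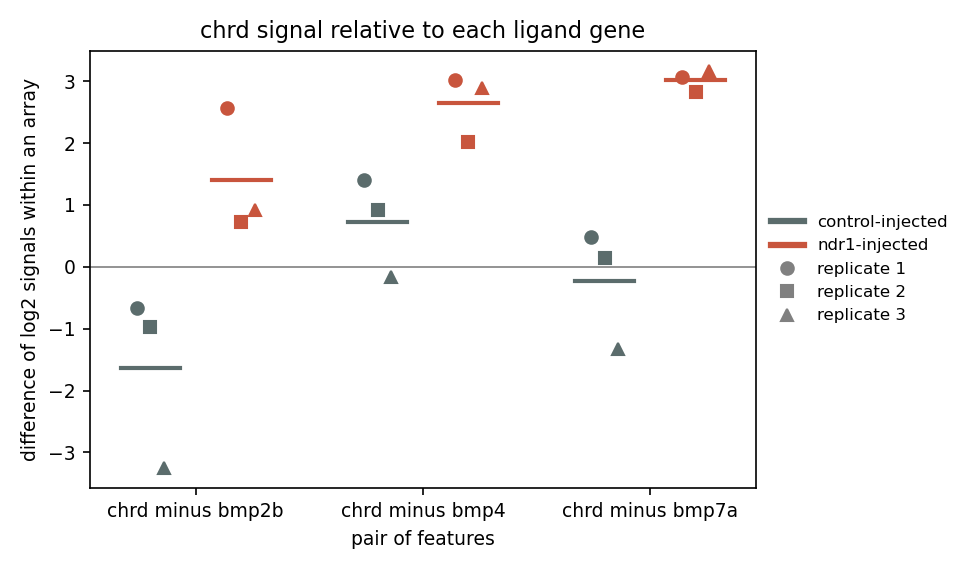
Log2 signal of *chrd* minus that of *bmp2b*, *bmp4* (brighter feature, 22617) or *bmp7a* on the same array (vertical axis), for the 3 control-injected and 3 *ndr1*-injected arrays, with bars at the means. In each pair drawn all 3 *ndr1*-injected values are above all 3 control-injected values, and the *ndr1*-injected mean is higher by 3.03, 1.93 and 3.25 log2 units. With the dimmer *bmp4* feature, not drawn, the groups overlap and the excess is 0.99.

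Signals also drifted smoothly across the surface of each array, and the 8 features were read again after this local trend had been taken off. The differences moved by 0.26 or less: *chrd* was then at 3.10 ± 0.57 (SE), *bmp4* at 1.33 ± 0.27 and 2.12 ± 0.38, *bmp2b* at 0.35, *bmp7a* at 0.16 and *nog1* at 0.35. The brighter *bmp1a* feature was at 1.02 ± 0.21, with an unadjusted limma p of 0.00127 and an adjusted p of 0.496. None of the 8 passed, while 27 features of the array did (0.0597%). With an intensity trend and robust variance in the fit, again none of the 8 passed and 42 features of the array did (0.0929%).

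The other genes on a broad list drawn up by role for the BMP pathway had a median close to that of the array. The list also holds *gdf3*, *dand5*, *sfrp1a* and *sfrp1b*, and whether each of its genes acts in BMP signalling was not checked. Of 85 listed genes 64 were measured, with a median difference of -0.01, 31 of them above 0 and 0 passing the test in either direction (feature fit, brightest feature of each gene). Groups were apart in 8 with *ndr1*-injected higher (12.5%) and in 5 with it lower (7.81%), against 8.11% and 5.86% of all 14434 named genes. An unadjusted p below 0.05 was found for 7 of the 64, against 5.69% of named genes, and 2 were higher and 0 lower with p of at most 0.02, against 1.25% and 0.762%.

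The 10 other ligand genes had a median of -0.24. The 3 with the smallest p were *bmp5* at 0.99 ± 0.47 (SE), whose dimmer feature was at -0.10, *bmp15*, an oocyte ligand gene, at -0.60 ± 0.35, and *gdf6a* at -0.57 ± 0.37, with its other features at -0.27 and 1.21. Once position was subtracted *bmp5*, *bmp15* and *gdf6a* were at 0.55, -0.55 and -0.11. The groups overlapped for *bmp5* and *gdf6a* and were apart for *bmp15*, with *ndr1*-injected lower. Among 19 other secreted antagonist and modulator genes the median was 0.02. *bmper*, whose product binds BMPs, read 7.03, 7.01 and 6.60 in control-injected and 7.99, 7.12 and 7.63 in *ndr1*-injected embryos, a difference of 0.70 ± 0.32 on a feature at percentile 9.4 of the array's brightness. The Gremlin gene *grem1a* differed by -1.03 ± 0.48 and *tll1*, another Tolloid protease gene, by -0.67 ± 0.31, while 4 other *tll1* features lay between 0.21 and 1.04. After subtraction *bmper*, *grem1a* and *tll1* were at 0.53, -0.88 and -0.37.

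Receptor and pseudoreceptor genes had a median of -0.04 over 10. *bambia*, for a pseudoreceptor that lacks the kinase and dampens BMP signalling, read 11.81, 11.18 and 12.13 in control-injected and 12.82, 12.59 and 12.64 in *ndr1*-injected embryos. The groups were apart, with a difference of 0.98 ± 0.33 (SE), which was 0.55 once position was subtracted. The receptor genes *bmpr2b* and *bmpr1aa* differed by -1.13 ± 0.44 and -0.50 ± 0.27, and at -0.85 and -0.16 once position was subtracted. The 2 other *bmpr1aa* features lay at -0.37 and 0.47.

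The 6 Smad and regulator genes had the highest median, 0.44. *smad5*, the gene of a BMP effector, was at 0.67 ± 0.29 (SE) and *smurf1*, for a ubiquitin ligase that targets Smads, at 0.53 ± 0.29, both with separate groups. Once position was subtracted these were at -0.03 and -0.12, so neither direction held. *skib*, of the Ski family of Smad corepressors, was at 0.79 ± 0.34, also with separate groups, and at 0.42 after subtraction. Its other feature was at 1.07.

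Target and ventral genes had a median of -0.01 over 19. Of these *id3*, a BMP target whose product blocks helix-loop-helix transcription factors, read 10.61, 10.76 and 10.81 in control-injected and 13.41, 13.33 and 13.01 in *ndr1*-injected embryos. The difference was 2.52 ± 0.27 (SE). The adjusted p was 0.106 over features and 0.0444 over genes, and of the 64 genes it alone passed at gene level, where 3 of 14434 did (0.0208%). Once position was subtracted *id3* was at 2.46, with a limma adjusted p of 0.173 over features. Over features it passed neither before nor after subtraction, and no fit over genes was made after subtraction. *id1*, of the same family and also a BMP target, went the other way at -0.80 ± 0.28 with separate groups, and did not pass. Once position was subtracted *id1* was at -0.44. The homeobox gene *msx3* was at 1.05 ± 0.40 with overlapping groups, and at 0.33 once position was subtracted. Its other feature was at 0.22.

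**Figure D4:**
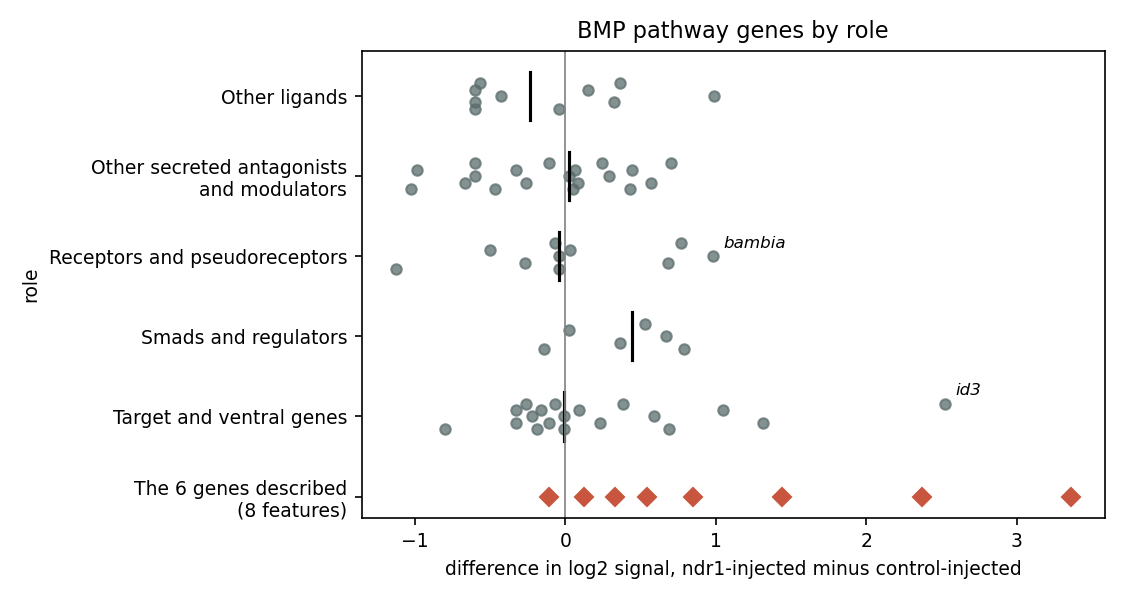
Difference in log2 signal between *ndr1*-injected and control-injected embryos (horizontal axis) for 64 other genes of the BMP pathway list, by role. Each gene is 1 point, with a bar at the median of its role. Below them, as diamonds, are the 8 features of the ligand, antagonist and protease genes. The medians lie between -0.24 and 0.44, and *id3* at 2.52 is the one pathway gene that lies above both *bmp4* features.

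The genes most like *chrd* and *bmp4* over the 6 arrays were sought by the root mean square difference of log2 signals, each feature centred on its own mean, among the 14433 other named genes. Nearest to *chrd* was *notum1a*, the gene of a secreted Wnt antagonist, at 0.43 log2 units. It read 7.88, 7.0 and 6.61 in control-injected and 11.86, 10.16 and 10.82 in *ndr1*-injected embryos, which has the order of *chrd* on all 6 arrays. Next came *zgc:153018* at 0.47 and the cytochrome P450 gene *cyp2aa8* at 0.51, which have the same order. Nearest to the brighter *bmp4* feature were *zgc:162964* at 0.10, the forkhead gene *foxd3* at 0.18 and the zinc finger gene *zic2a* at 0.20. *zgc:162964* read 8.45, 8.44 and 7.64, then 10.02, 9.50 and 9.30, and *foxd3* 10.28, 10.19 and 9.76, then 11.82, 10.91 and 10.92. In all of these *ndr1*-injected replicate 1 was the highest array and control-injected replicate 3 the lowest, as in *chrd* and the brighter *bmp4* feature. The genes were picked for their likeness over these same arrays. The shared highest and lowest arrays, and the order that *notum1a*, *zgc:153018* and *cyp2aa8* share with *chrd*, therefore largely follow from that choice. This likeness is a description over 6 arrays in 2 groups.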

How the data were processed

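The authors hybridised dye-labelled cDNA from 15 µg of total RNA to Agilent Zebrafish arrays (V2), scanned them with an Axon GenePix scanner and normalised by qspline. In the deposited table each feature has 1 value per array, taken as log2 from the range of 4.92 to 16.26. How background was corrected, which features were detected, and slide and scan day are not stated in these sources. The general injection methods of the study name another *ndr1* amount and *egfp* mRNA as control; the labels were followed.

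Features were named through the platform annotation (21061 of 45220 with 1 symbol), updated to RefSeq names of GRCz12tu by Entrez number or accession, giving 14434 genes. The groups were compared over all features with limma 3.58.1 (lmFit, eBayes; R 4.3.3), without covariates and with Benjamini-Hochberg adjustment. Where 1 feature per gene was needed, the brightest over all arrays was taken. The local trend was the median deviation from the median array in windows of 9 by 9 features on a grid 85 columns wide, inferred from the correlation of neighbouring features (0.527 at that lag). The fit was tested on simulated data with known changes. With 50 features simulated at each size, 0% were called at a change of 1 log2 unit and 20% at 2. At 3 and 4 log2 units 52% and 62% were called, with 0 false calls. A feature that does not pass may therefore still have changed. The simulated noise was independent between features and equally large in both groups. The real arrays drifted with position and the controls varied more, so these shares need not hold for them.

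The 8 genes, the pathway list and the tests were chosen with earlier results of these data known. Genes named besides the 8 are *ndr1*, the 3 of each role with the smallest p, and the 3 nearest to *chrd* and *bmp4*. *ins*, the yolk syncytial layer genes, *gdf3*, *dand5*, *sfrp1a* and *sfrp1b* were named after their values had been seen. Alternatives were a block for the replicate number, quantile normalisation, centring on array medians, omission of the dimmest 25% of features, robust variance with an intensity trend, weights for arrays, subtraction of array position, omission of each array, other thresholds and other rules for genes with several features.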

Additional observations from a re-analysis of the deposited data

How the results depend on the processing

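Under the alternatives for which a difference was refitted, *chrd* ran from 2.71 to 3.84 log2 units, *bmp4* from 1.16 to 1.64 (feature 22617) and from 1.99 to 2.62 (4723), *bmp2b* from 0.17 to 0.49 and *nog1* from 0.19 to 1.01. A pair of directions turned: *bmp7a* was at -0.33 without *ndr1*-injected replicate 1 (-0.33 to 0.39 over the arrays left out), and the dimmer *bmp1a* feature at 0.05 with array weights and at 0.29 without control-injected replicate 3 (-0.49 to 0.29). The cause was not tested. The number of the 8 features past the threshold was 0 throughout, except 3 at an unadjusted p of at most 0.02 and 1 under the added setting below. With any single array omitted, 0 of the 8 features, 0 pathway genes and 0 features of the array passed.

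Whether the replicate numbers pair the arrays was not settled. Deviations from the group means of equally numbered arrays correlated at 0.179, -0.101 and 0.04. Those of unequally numbered arrays correlated at -0.256 to 0.222. With 3 arrays per group this check cannot exclude a pairing, and it was not repeated after subtraction of position. With the number as a replicate block 0 of the 8 features, 0 pathway genes and 0 of 45220 features passed. With the block and subtraction of position together, chosen after the data had been seen, 1 of the 8 features passed, *chrd* (3.10 log2 units, adjusted p 0.0258 with limma; 0.0258 to 0.991 over its alternatives), as did 1 pathway gene and 38 features of the array, *ndr1* among them (3.27). Subtraction of position alone gave 27 features, *ndr1* again at 3.27, and an intensity trend with robust variance 42, with *ndr1* at 3.65 and 1 pathway gene. Of the pathway genes 1 also passed with 1 feature per gene, with the mean of features per gene and at an adjusted p below 0.2, and 2 at an unadjusted p of at most 0.02. The ligand median was 0.33 with 1 feature per gene and with the mean of features, and between 0.81 and 0.96 when single arrays were omitted. The *ndr1* difference lay between 3.32 and 3.85 when single arrays were omitted. Signal over background could not be judged, as no detection calls were used.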
